A study of Rattus norvegicus with 36 samples.

Results

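The comparison described here set rat liver after a PBDE47 dose of 4.85 mg/kg against liver after 0.0485 and 0.485 mg/kg, the last 2 pooled as 1 reference. Its members are 18 of the series' 36 Affymetrix expression arrays: 6 arrays at 4.85 mg/kg and 12 reference arrays, 6 from each lower dose. They were chosen by their dose label alone, and the vehicle arrays took no part in the main test. PBDE47 is a polybrominated diphenyl ether, a class of flame retardant. The animals of all 6 dose groups were male Harlan Sprague Dawley rats, 7 weeks old when dosing began and kept on the NTP-2000 diet. Each was gavaged with PBDE47 in corn oil, at a volume of 5 ml/kg, on 5 days in a row, and necropsied the day after the final dose. Vehicle animals received 0 mg/kg, so corn oil and gavage were common to every group. RNA came from the left lobe of the liver. The labels number 6 samples per dose and do not say more about how they were separated, so p-values here measure the spread between samples. In this bulk tissue, fewer cells of a type and less RNA per cell cannot be told apart.

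Hepatocytes carry 2 related nuclear receptors, CAR (Nr1i3) and PXR (Nr1i2), that raise the transcription of drug-metabolising enzymes when a foreign compound is present. Their classic targets in rat liver are the cytochromes P450 of the CYP2B and CYP3A families, followed by conjugating enzymes such as UDP-glucuronosyltransferases and by efflux pumps. CYP2B is the textbook marker of the phenobarbital-type response, whereas CYP1A enzymes mark the aryl hydrocarbon receptor and Nqo1 responds to NRF2.

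The upstream sequences of 3 genes are shown: Cyp2b1 and Cyp2b2, whose joint probe set passed the main test's threshold, and Cyp3a23-3a1, which did not pass it. A single probe set measured Cyp2b1 and Cyp2b2 jointly, and the stretches just before the starts of these neighbouring genes are nearly the same, with 204 of 212 aligned bases identical (96.2%). Capitals in the first 2 sequences mark the 8 bases that differ. Capitals in the last mark a direct repeat, 2 copies of the half-site TGAACT spaced by 3 bases, the arrangement through which PXR is known to bind. All are from RefSeq on build GRCr8, written 5′ to 3′ on the gene's strand and ending at the base before the gene's start: chr1:90645869-90646097 (plus strand) for Cyp2b1, chr1:90722031-90722242 (plus strand) for Cyp2b2 and chr12:14398804-14399053 (minus strand) for Cyp3a23-3a1, a major inducible CYP3A gene of the rat.
Cyp2b1: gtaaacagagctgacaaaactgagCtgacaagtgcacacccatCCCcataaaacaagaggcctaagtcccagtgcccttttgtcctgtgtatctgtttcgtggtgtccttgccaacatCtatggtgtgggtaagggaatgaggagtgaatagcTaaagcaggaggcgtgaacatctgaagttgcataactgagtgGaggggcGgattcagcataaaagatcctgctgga
Cyp2b2: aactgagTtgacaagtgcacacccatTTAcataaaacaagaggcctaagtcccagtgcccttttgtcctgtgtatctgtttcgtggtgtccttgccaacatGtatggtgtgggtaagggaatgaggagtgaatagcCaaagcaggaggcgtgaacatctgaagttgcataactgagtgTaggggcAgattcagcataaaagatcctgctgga
Cyp3a23-3a1: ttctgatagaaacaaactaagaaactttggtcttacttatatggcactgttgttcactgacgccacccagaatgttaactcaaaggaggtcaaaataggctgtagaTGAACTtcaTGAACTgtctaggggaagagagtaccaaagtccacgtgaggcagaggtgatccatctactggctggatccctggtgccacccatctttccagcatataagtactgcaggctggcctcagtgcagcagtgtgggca
The repeat lay 144 to 130 bases before the start of Cyp3a23-3a1. Searched on both strands as 2 AGTTCA in the same orientation with any 3 bases between (the reverse complement of the form printed), it occurred in 2 of 33469 windows of 250 bases in the RefSeq table (0.006%). Its half-site AGTTCA alone, which the repeat contains by construction, was in 12.2% of the windows and the half-site AGGTCA in 14.1%. The windows of Ces2c, Ugt2b1 and Cyp3a9 each held 1 AGTTCA, while those of Cyp2b1, Cyp2b2, Aldh1a1 and Nqo1 held neither half-site. An everted repeat, TGAACT followed after any 6 bases by AGGTCA, was in 0 windows. These matches describe letters within a short window and are no measure of binding.

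The 18 arrays resembled each other closely. Their median log2 values lay between 5.32 and 5.37, and arrays of the same dose correlated at 0.990 to 0.997 across probe sets. Hepatocyte transcripts were abundant, as the liver label requires: albumin (Alb) averaged 15.05 at 4.85 mg/kg and 15.06 in the reference, close to the highest value on any array (15.04 to 15.07), and transthyretin (Ttr) 14.62 and 14.63. One array stood apart. Replicate 6 at 4.85 mg/kg scored -40.4 on the first principal component, which held 15.0% of the variance, whereas the other 17 arrays lay between -13.4 and 11.5. The 3′ minus 5′ signal of the control probe sets, a measure of RNA integrity, was 0.067 lower for Actb at 4.85 mg/kg (1.15 ± 0.061 SD, n = 6, against 1.22 ± 0.071, n = 12; exact two-sided permutation p = 0.064, 0.192 after Benjamini-Hochberg adjustment over 3 controls). The Actb value was -0.084 without replicate 3 at 0.0485 mg/kg (exact permutation p = 0.00444), -0.073 without replicate 3 at 0.485 mg/kg (exact permutation p = 0.0498) and -0.079 without replicate 6 at 4.85 mg/kg (exact permutation p = 0.0452). For Gapdh and hexokinase the exact permutation p was 0.558 and 0.798. No value from replicate 6 at 4.85 mg/kg lay outside the range of the other arrays for these controls. Its log2 values were spread less widely, with an interquartile range of 3.23 against 3.36 to 3.53 on the other arrays. Its mean correlation with its own group was 0.991, against 0.993 to 0.995 for the others. Counts of list members that changed by 1.5 times or more without replicate 6 are given both ways.

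At 4.85 mg/kg the CYP2B transcripts rose 4.05-fold over the lower doses. No other probe set passed the threshold in either direction. In limma's moderated test with Benjamini-Hochberg adjustment over 31042 probe sets, 1 was called at an adjusted p below 0.05, which is 0.00322% of those tested, and 0 were lower. At an unadjusted p below 0.05 there were 2216 probe sets (7.14%), 1040 higher (3.35%) and 1176 lower (3.79%). Counted by genes, each represented by its brightest probe set, 562 of 14218 were higher at that level (3.95%) and 637 lower (4.48%), together 8.43%, and the median log2 difference over all genes was -0.00063. Without replicate 6 the count was again 1, the same probe set, and 2407 (7.75%) had an unadjusted p below 0.05, of which 1285 were higher (4.14%) and 1122 lower (3.61%).

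The joint CYP2B probe set reads Cyp2b1 and Cyp2b2, monooxygenases that oxidise many lipophilic compounds, and cannot say which of the pair contributed. Its log2 values at 4.85 mg/kg ranged from 12.78 through a median of 12.98 to 13.13. In the 12 reference arrays they ran from 10.41 through 10.88 to 12.10. All 6 arrays at 4.85 mg/kg lay above all 12 of the reference. The log2 difference was 2.02 ± 0.19 (SE; means 12.97 and 10.95; adjusted p = 1.44e-05, limma), and 1.99 without replicate 6 (adjusted p = 0.000119). The 2 reference arrays closest to the higher dose were both at 0.485 mg/kg, replicate 4 at 12.10 and replicate 5 at 11.65, whereas the highest array at 0.0485 mg/kg read 11.01.

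**Figure D1:**
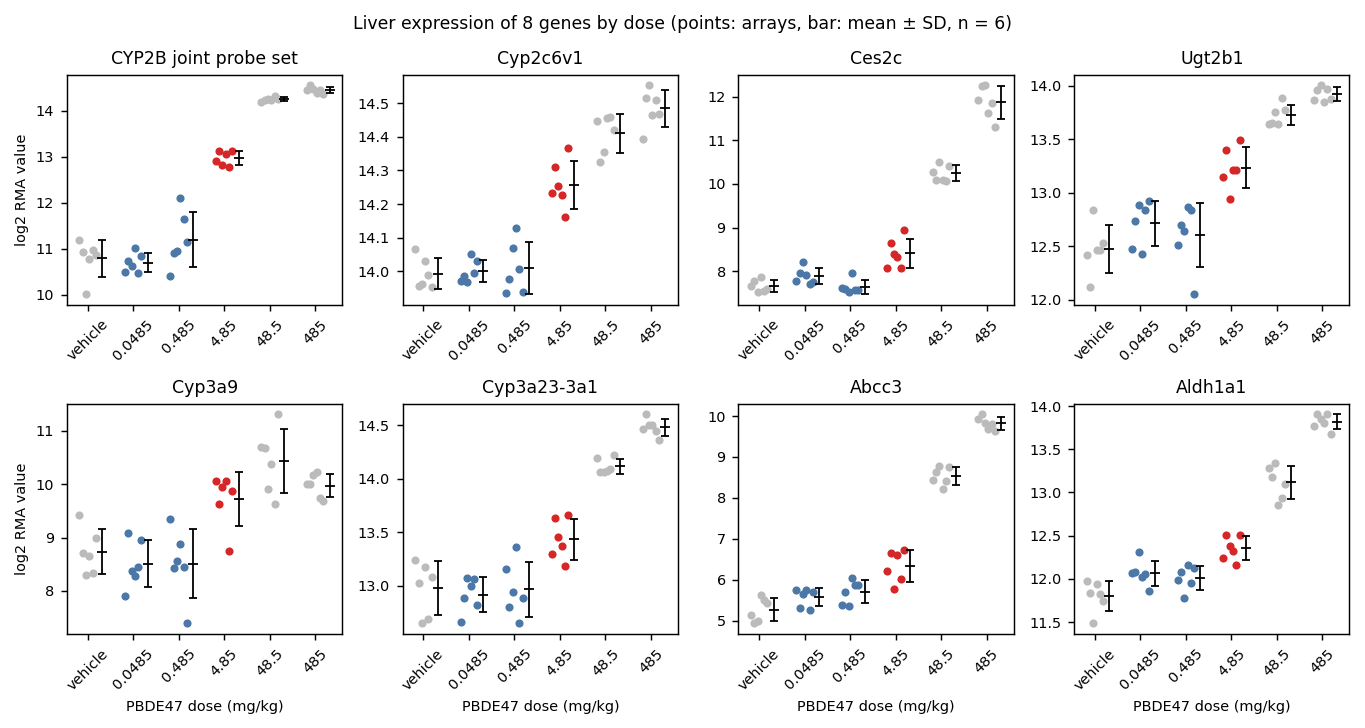
Log2 RMA values of 8 drug metabolism and transport genes (y axes, scaled per panel and not starting at 0) against PBDE47 dose in mg/kg (x axes). Points are single arrays, with the mean ± SD of 6 arrays beside them; red is 4.85 mg/kg, blue the 2 reference doses and grey the groups outside the comparison. For CYP2B the red points lie between 12.78 and 13.13, above every blue point, and in the panels of Ces2c, Cyp3a9, Cyp3a23-3a1, Abcc3 and Aldh1a1 the 2 colours overlap.

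The lower doses taken singly gave the same single call. Against 0.485 mg/kg the CYP2B difference was 1.77 ± 0.19 (adjusted p = 0.000351, limma on the 18 arrays with 3 groups), with 1 probe set called and 2181 at an unadjusted p below 0.05 (7.03%). Against 0.0485 mg/kg it was 2.27 ± 0.19 (adjusted p = 5.36e-06), with 1 called and 1554 at an unadjusted p below 0.05 (5.01%). Between the 2 lower doses limma called 0 probe sets, with 1074 at an unadjusted p below 0.05 (3.46%), and an unmoderated test of the same model also called 0, with 1108. CYP2B was 0.49 ± 0.19 higher at 0.485 than at 0.0485 mg/kg (unadjusted p = 0.0183, limma with the 3 groups). That difference did not pass adjustment over all probe sets (adjusted p = 0.999). Its spread was also wider at 0.485 mg/kg (11.19 ± 0.60 SD, n = 6) than at 0.0485 mg/kg (10.70 ± 0.21 SD, n = 6) or 4.85 mg/kg (12.97 ± 0.16 SD, n = 6).

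Placed in the whole dose series, the CYP2B level at 4.85 mg/kg stood alone. Vehicle arrays spanned 10.02 to 11.19 and overlapped both lower doses. The 4.85 mg/kg arrays lay between these and the 48.5 mg/kg arrays (14.18 to 14.32). At 485 mg/kg the arrays read 14.35 to 14.55. The step of 0.19 ± 0.05 from 48.5 mg/kg did not pass the threshold (adjusted p = 0.0625, limma on those 12 arrays). Values at these 2 doses lay close to the highest on the arrays, where compression of the signal was not tested.

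**Figure D2:**
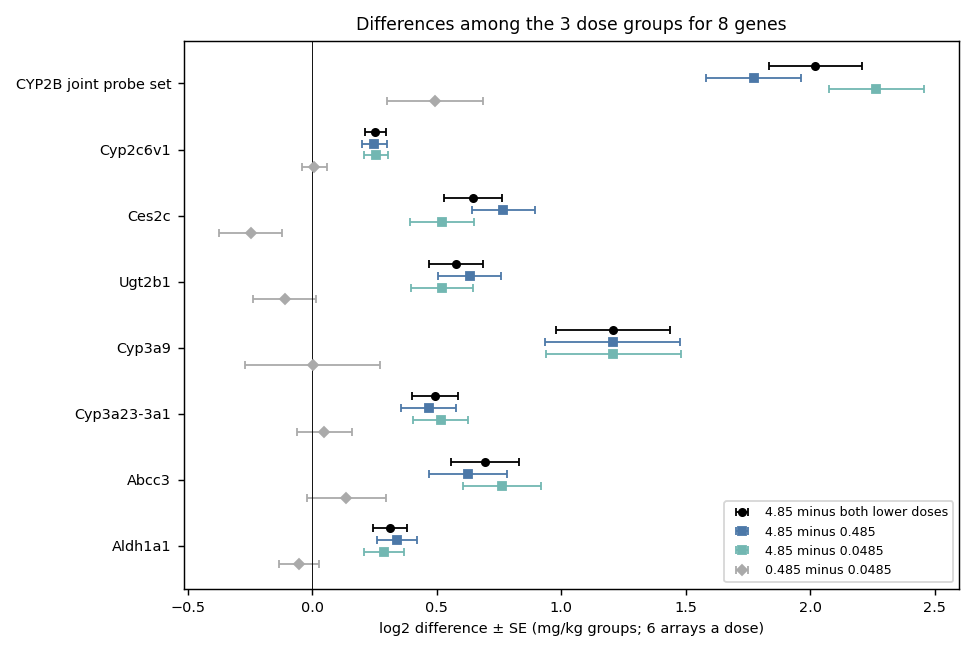
Log2 differences among the 3 dose groups for the same 8 drug metabolism and transport genes (x axis, log2 units; bars are the standard error of the fit). Black is 4.85 mg/kg minus the pooled reference, blue and green the same against 0.485 and 0.0485 mg/kg alone, and grey the step between the lower doses, which is 0.49 for CYP2B and between -0.25 and 0.14 for the other 7.

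Other P450 genes were next in the ranking without passing the threshold. Cyp2c6v1, an abundant CYP2C enzyme that phenobarbital is known to induce, read 14.16, 14.24 and 14.37 (lowest, median, highest) at 4.85 mg/kg and 13.93, 13.99 and 14.13 in the reference. The groups did not overlap, and the log2 difference was small, 0.25 ± 0.04 (adjusted p = 0.0877). These values too lay close to the highest on any array, where compression of the signal was not tested. Cyp3a9, a CYP3A enzyme of rat liver, read 8.75, 9.91 and 10.07 against 7.39, 8.45 and 9.34. Its log2 difference of 1.21 ± 0.23 was the second largest of the drug metabolism genes, but replicate 5 at 4.85 mg/kg fell inside the reference range (adjusted p = 0.137). Cyp3a23-3a1, whose repeat is printed above, read 13.18, 13.41 and 13.66 against 12.65, 12.92 and 13.36. Here 4 of 6 arrays exceeded the whole reference and the log2 difference was 0.49 ± 0.09 (adjusted p = 0.137).

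Conjugation and transport genes followed at similar adjusted p. Ugt2b1, a UDP-glucuronosyltransferase that attaches glucuronic acid to steroids and drugs, read 12.94, 13.22 and 13.49 at 4.85 mg/kg and 12.05, 12.72 and 12.92 in the reference. All 6 arrays were above the reference, with a log2 difference of 0.58 ± 0.11 (adjusted p = 0.137). Ces2c, a carboxylesterase that hydrolyses esters and amides, read 8.06, 8.36 and 8.95 against 7.52, 7.74 and 8.21, a log2 difference of 0.64 ± 0.12 (adjusted p = 0.137), with 4 of 6 arrays above the reference. Abcc3, the basolateral pump that exports glucuronides into blood, read 5.78, 6.42 and 6.72 against 5.26, 5.70 and 6.05. Its log2 difference was 0.69 ± 0.14 (adjusted p = 0.16), and 4 of 6 arrays lay above the reference. Aldh1a1, a cytosolic aldehyde dehydrogenase that forms retinoic acid, read 12.17, 12.35 and 12.50 against 11.77, 12.06 and 12.31, a log2 difference of 0.31 ± 0.07 (adjusted p = 0.203). Gadd45b, a stress-inducible gene also known as a CAR target, read 5.22, 5.75 and 6.28 against 4.67, 5.17 and 5.52, a difference of 0.61 ± 0.12 (adjusted p = 0.16).

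Within single arrays these genes were high together. The 8 genes counted were CYP2B, Cyp2c6v1, Ces2c, Ugt2b1, Cyp3a9, Cyp3a23-3a1, Abcc3 and Aldh1a1, picked as drug metabolism and transport genes and not by rank alone, since Gadd45b and Blvrb had smaller p than Aldh1a1. Replicates 2, 4 and 6 at 4.85 mg/kg were among the 6 highest of 18 arrays in 8 of 8, replicates 1 and 3 in 7 and replicate 5 in 5. Of the reference arrays, replicate 4 at 0.485 mg/kg was the highest for 4 of the 8 genes and replicate 3 at 0.0485 mg/kg for 2. The genes were picked for their differences, so these counts describe the arrays and carry no test.

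Vehicle levels of 3 of these genes are given beside those of the reference, by value alone. Aldh1a1 averaged 11.80 ± 0.18 (SD, n = 6) in vehicle, 12.07 ± 0.14 at 0.0485 mg/kg and 12.01 ± 0.14 at 0.485 mg/kg. Abcc3 averaged 5.27 ± 0.29 in vehicle, 5.57 ± 0.22 and 5.71 ± 0.28 at the lower doses, and 6.34 ± 0.39 at 4.85 mg/kg. Cyp2c6v1 was level over the same groups, at 13.99 ± 0.05, 14.00 ± 0.03 and 14.01 ± 0.08. No test of the lower doses against vehicle was made here.

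Across the targets of CAR and PXR, 22 of 30 listed genes were measured. This list and those that follow were chosen with earlier results of these data known. Their counts and medians therefore describe the members and carry no test. CYP2B alone rose, 14 had an unadjusted p below 0.05 and all 14 of these were higher, against 3.95% of all genes. The list median was 0.26 on the log2 scale, against -0.00063 for all genes, and 20 of 22 differences were positive. The members ranged from -0.15 for Cyp2c7 to 2.02 for CYP2B. Taken array by array against the reference mean, the list median ran from 0.12 to 0.35 at 4.85 mg/kg and from -0.083 to 0.13 in the reference, where replicate 4 at 0.485 mg/kg and replicate 3 at 0.0485 mg/kg were the highest. Ephx1, the microsomal epoxide hydrolase, differed by 0.27 ± 0.08 (adjusted p = 0.49). Alas1, which catalyses the first step towards the heme of every P450, read 10.79, 11.00 and 11.45 against 10.05, 10.63 and 10.93, a difference of 0.42 ± 0.11 (adjusted p = 0.34).

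In the families of drug metabolism, which share genes, CYP2B was the single member called. The counts that follow stand beside 3.95% of all genes higher and 4.48% lower at the same level, and no list was tested as a whole. Of 22 measured P450 genes and their partners, 10 were higher and 0 lower at an unadjusted p below 0.05 (median 0.11). Cyb5a, the electron donor cytochrome b5, differed by 0.15 ± 0.04 (adjusted p = 0.34) and Cyb5r3, which reduces it, by 0.21 ± 0.06 (adjusted p = 0.389). Of 19 glutathione S-transferases, which couple electrophiles to glutathione, 8 were higher and 0 lower (median 0.13), and 18 differences were positive. Gsta4 had the smallest p of these at 0.19 ± 0.05 (adjusted p = 0.389), Gstk1 followed at 0.15 ± 0.05 (adjusted p = 0.502), and the extremes were Gstm2 at 0.34 and Gstm5 at -0.05. Of 27 carboxylesterases, aldehyde dehydrogenases, epoxide hydrolases and reductases, 8 were higher and 0 lower (median 0.08). Of 19 UDP-glucuronosyltransferases and sulfotransferases, 4 were higher and 0 lower (median 0.06; 1 lower without replicate 6 at 4.85 mg/kg) and 12 differences were positive, from Sult2a6 at -0.57 to Ugt2b1 at 0.58. Ugt2b10 differed by 0.19 ± 0.08 (adjusted p = 0.649). Of 22 transporters, 15 differences were positive and 2 were higher at that level, or 5 without replicate 6, with 0 lower in both cases (median 0.05). The 2 were Abcc3 and Abcb6, a mitochondrial and endosomal porphyrin transporter that differed by 0.16 ± 0.05 (adjusted p = 0.431).

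**Figure D3:**
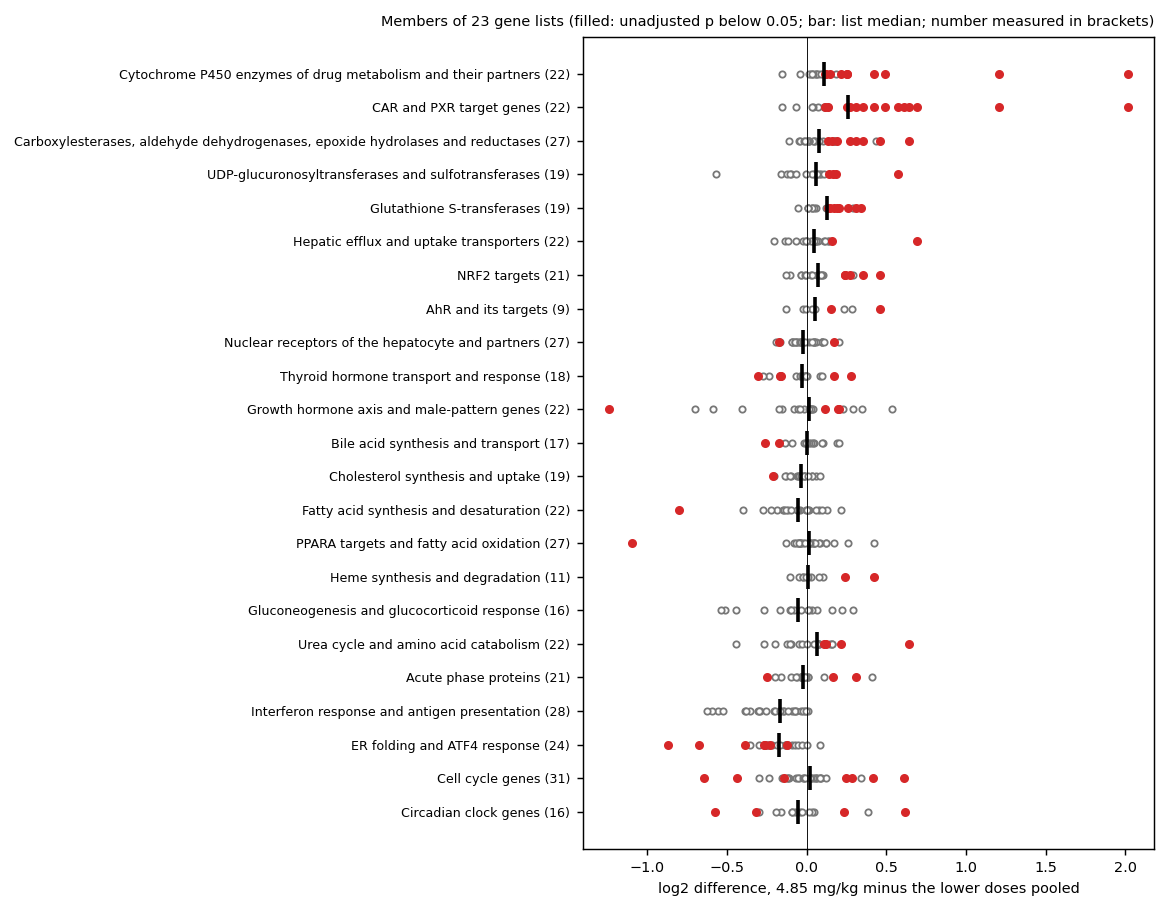
Log2 differences between 4.85 mg/kg and the pooled lower doses (x axis) for the measured members of 23 gene lists (rows, which share some genes). Each circle is 1 gene, filled red at an unadjusted p below 0.05, and black bars mark list medians, which run from -0.18 for ER folding and ATF4 response to 0.26 for CAR and PXR targets.

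Genes of neighbouring stress pathways gave no call. Of 21 NRF2 targets, 5 were higher and 0 lower at an unadjusted p below 0.05 (median 0.07). Nqo1, the quinone reductase, read 7.46, 7.77 and 8.16 at 4.85 mg/kg and 6.94, 7.31 and 7.72 in the reference, with a difference of 0.46 ± 0.11 (adjusted p = 0.304) and 3 of 6 arrays above the reference. Blvrb, biliverdin reductase B, differed by 0.24 ± 0.05 (adjusted p = 0.203), with 5 of 6 arrays above the reference. Of 9 genes of the aryl hydrocarbon receptor group, 2 were higher (median 0.05). Cyp1a1, the most responsive gene of that receptor, read 4.94, 5.19 and 5.65 against 4.55, 4.93 and 5.85. Its groups overlapped fully, the difference was 0.28 ± 0.15 (adjusted p = 0.723), and the values lay near the array medians of 5.32 to 5.37. Cyp1a2, its liver-abundant relative, differed by 0.16 ± 0.05 (adjusted p = 0.502). Of 11 genes of heme synthesis and degradation, 2 were higher, Alas1 and Blvrb, and 0 lower (median 0.01).

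The nuclear receptors and the endocrine genes were divided in direction. Of 27 receptors and partners, 1 was higher and 1 lower at an unadjusted p below 0.05 (median -0.02). The smallest p was that of Dnajc7, a co-chaperone that retains CAR in the cytoplasm, at -0.17 ± 0.05 (adjusted p = 0.429). In its brightest probe set of 3, 5 of 6 arrays lay below the reference. The Dnajc7 difference ran from -0.20 to -0.15 with single arrays left out, but from -0.20 to -0.02 over all alternatives of processing. Of 18 thyroid hormone genes, 2 were higher and 3 lower (median -0.03), or 2 and 2 without replicate 6. The deiodinase Dio1 differed by 0.00 ± 0.07 (adjusted p = 0.994), Thrsp, a lipogenic gene driven by thyroid hormone, by -0.27 ± 0.24 (adjusted p = 0.872), and the receptor Thra by 0.17 ± 0.06 (adjusted p = 0.579). Atp2a2, the calcium pump, differed by -0.16 ± 0.06 (adjusted p = 0.565). Over all alternatives of processing Thra, with 3 probe sets, ran from 0.09 to 0.20 and Atp2a2, with 5, from -0.24 to -0.08. Of 22 genes of the growth hormone axis and male pattern, 3 were higher and 1 lower (median 0.02), or 2 and 2 without replicate 6. Cyp2c11, the main male-specific P450, read 13.78, 13.87 and 13.99 against 13.37, 13.70 and 13.87, a difference of 0.21 ± 0.06 (adjusted p = 0.49). Onecut1, a growth hormone-responsive transcription factor, had the widest spread: 6.60 to 10.28 at 4.85 mg/kg and 7.16 to 11.17 in the reference, with a difference of -1.24 ± 0.50 (adjusted p = 0.637).

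Lipid and bile acid genes gave no call. Of 17 bile acid genes, 0 were higher and 2 lower at an unadjusted p below 0.05 (median 0.01), and without replicate 6 at 4.85 mg/kg 2 were higher and 2 lower (median 0.03). The 2 lower with all arrays were Cyp7b1, an oxysterol hydroxylase, at -0.26 ± 0.09 (adjusted p = 0.571), and Slc27a5, which activates bile acids for conjugation, at -0.17 ± 0.08 (adjusted p = 0.665). The Cyp7b1 signal was low, averaging 3.08 at 4.85 mg/kg and 3.34 in the reference, below the array medians of 5.32 to 5.37. Cyp7a1, the rate-limiting enzyme, differed by -0.09 ± 0.20 (adjusted p = 0.961), and by 0.13 when replicate 1 at 4.85 mg/kg was left out. Of 19 cholesterol genes, 1 was lower, Hsd17b7 at -0.21 ± 0.10 (adjusted p = 0.677), and 0 without replicate 6; the isomerase Idi1 differed by -0.13 ± 0.09 (adjusted p = 0.838; list median -0.04). Of 22 fatty acid synthesis genes, 1 was lower (median -0.05). This was Scd, the stearoyl-CoA desaturase, which read 8.84, 9.26 and 10.35 against 9.27, 10.04 and 11.56, a difference of -0.80 ± 0.32 (adjusted p = 0.631), while the elongase Elovl6 differed by -0.40 ± 0.20 (adjusted p = 0.706). Of 27 PPARA and fatty acid oxidation genes, 1 was lower (median 0.02): Fgf21, the hepatokine of fasting and amino acid stress, read 7.47, 7.83 and 9.05 against 8.23, 9.04 and 10.45. That difference was -1.10 ± 0.29 (adjusted p = 0.41), with 4 of 6 arrays below the whole reference. Cpt2 differed by -0.13 ± 0.07 (adjusted p = 0.763).

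Amino acid, acute phase, growth and clock genes were likewise uncalled. Of 22 urea cycle and amino acid genes, 4 were higher and 0 lower at an unadjusted p below 0.05 (median 0.06). Gpt, alanine aminotransferase, led them at 0.65 ± 0.16 (adjusted p = 0.34), with 9.18, 9.51 and 9.98 against 8.15, 9.02 and 9.41, and Hpd followed at 0.12 ± 0.05 (adjusted p = 0.629). Of 16 gluconeogenesis and glucocorticoid genes, 0 passed that level (median -0.06), with Tdo2 at 0.16 ± 0.08 (adjusted p = 0.701) and the kinase Sgk1 at -0.51 ± 0.28 (adjusted p = 0.755). Of 21 acute phase genes, 2 were higher and 1 lower (median -0.02; 3 and 1 without replicate 6 at 4.85 mg/kg), with Crp at 0.17 ± 0.05 (adjusted p = 0.502) and Orm1 at 0.31 ± 0.10 (adjusted p = 0.531). Of 31 cell cycle genes, 4 were higher and 3 lower (median 0.02; 7 and 2 without replicate 6), with Gadd45b the highest, Gadd45a the lowest at -0.65 and cyclin D1 (Ccnd1) at -0.44 ± 0.14 (adjusted p = 0.502). Of 16 clock genes, 2 were higher and 2 lower (median -0.06), with Per3 at -0.31 ± 0.12 (adjusted p = 0.59) and Npas2 at 0.62 ± 0.25 (adjusted p = 0.645). The Per3 signal was low, averaging 4.13 at 4.85 mg/kg and 4.44 in the reference, below the array medians of 5.32 to 5.37. Per3 had 2 probe sets, and its difference ran from -0.38 to -0.15 over all alternatives of processing.

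Genes of protein folding and the ATF4 pathway had the lowest median of the 23 lists. Of 24 measured, 0 were higher and 7 lower at an unadjusted p below 0.05, against 4.48% of all genes, and the median was -0.18, with 2 of 24 differences above 0. None was called. Atf3, a transcription factor induced by stress kinases and ATF4, read 5.33, 5.73 and 6.38 at 4.85 mg/kg and 6.08, 6.37 and 7.06 in the reference. Its difference was -0.67 ± 0.16 (adjusted p = 0.301), with 4 of 6 arrays below the whole reference. Chac1, a glutathione-degrading ATF4 target, differed by -0.87 ± 0.34 (adjusted p = 0.619) and Hsp90b1, an ER chaperone, by -0.12 ± 0.04 (adjusted p = 0.569). Array by array, the list median ran from -0.22 to -0.031 at 4.85 mg/kg and from -0.15 to 0.19 in the reference. Without replicate 6 the count was again 7 lower, against 3.7% of all genes, and the median -0.16. In the animals at 48.5 mg/kg against vehicle the list median was 0.08 and 0 members were called.

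Interferon and antigen presentation genes had the next lowest median, and the low values lay in few arrays. Of 28 measured, 0 passed an unadjusted p of 0.05 in either direction, and 1 of 28 differences was above 0, with a median of -0.17. Array by array, replicates 6 and 5 at 4.85 mg/kg had list medians of -1.04 and -0.60, and the other 4 lay between -0.038 and 0.28. One reference array, replicate 3 at 0.485 mg/kg, read -0.71. Without replicate 6 the list median was -0.06. Ifit2 differed by -0.31 ± 0.15 (adjusted p = 0.708) and Ifit3 by -0.55 ± 0.32 (adjusted p = 0.771), or -0.20 and -0.28 without replicate 6. Among Kupffer cell and macrophage markers, 0 of 10 measured differences were above 0 (median -0.09, or -0.01 without replicate 6), 0 were called, and their summed level, as log2 of the summed values, spanned 12.41 to 13.26 at 4.85 mg/kg and 12.40 to 13.28 in the reference. The complement gene C1qa differed by -0.16 ± 0.14 (adjusted p = 0.873) and the Kupffer lectin Clec4f by -0.18 ± 0.18 (adjusted p = 0.895). Their part in the interferon values was not tested.

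**Figure D4:**
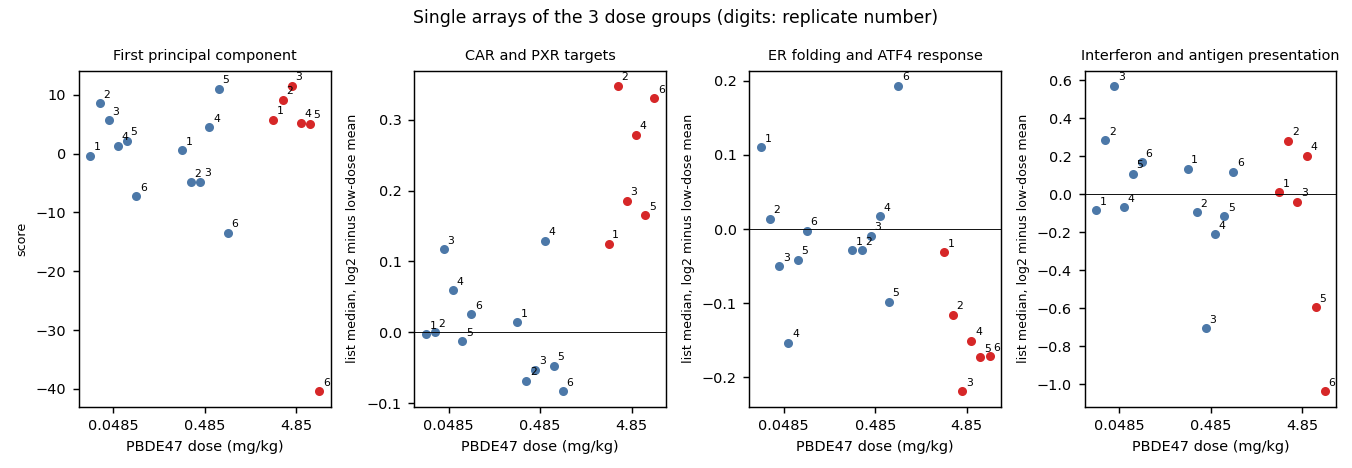
Values of the single arrays (digits are replicate numbers) at 0.0485, 0.485 and 4.85 mg/kg (x axes). The panels give the score on the first principal component and, for 3 gene lists, the median log2 difference of the members from the mean of the 12 reference arrays. Replicate 6 at 4.85 mg/kg lies at -40.4 in the first panel and -1.04 in the interferon panel, but within its group for CAR and PXR targets, where the 6 arrays read 0.12 to 0.35.

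Markers of the liver's cell types gave 0 calls. The 9 measured hepatocyte markers had a median of -0.01, with Apoa2 at 0.09 ± 0.05 (adjusted p = 0.771) and Fgb at -0.04 ± 0.04 (adjusted p = 0.9). Pericentral markers, which include Cyp1a2, had 2 of 9 higher at an unadjusted p below 0.05, or 4 without replicate 6 at 4.85 mg/kg. Their median was 0.16, with the glutamate transporter Slc1a2 at 0.33 ± 0.11 (adjusted p = 0.502) in its brightest probe set of 2. The Slc1a2 difference ran from 0.28 to 0.38 with single arrays left out, but from 0.15 to 0.38 over all alternatives of processing. Periportal markers had 1 of 8 higher and a median of 0.04, with Cyp2f4 at 0.13 ± 0.05 (adjusted p = 0.609) and Arg1 at -0.12 ± 0.07 (adjusted p = 0.763). Sinusoidal endothelial (Lyve1 -0.08, Fcgr2b -0.07), stellate (Col1a1 0.27, Des -0.10), T and NK cell (Cd4 -0.09, Cd3g 0.06), neutrophil (Camp -0.10, Fcnb 0.07) and erythroid markers (Hbb -0.12, Car1 -0.13) had no member at an unadjusted p below 0.05; without replicate 6 the endothelial and stellate lists had 1 higher each. Cholangiocyte markers had 1 of 6 (Epcam 0.23, beside Spp1 at 0.16) and B cell markers 1 of 5 (Jchain 0.33, beside Blk at 0.09). The part of cell composition in the list values was not tested.

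The lower side of the ranking held other kinds of genes. Otud6b, a deubiquitinase, read 8.18, 8.28 and 8.35 at 4.85 mg/kg and 8.44, 8.50 and 8.83 in the reference. Its groups did not overlap, and the difference was -0.27 ± 0.05 (adjusted p = 0.16). Imp3 and Mphosph10, components of the U3 ribonucleoprotein that processes ribosomal RNA, differed by -0.25 ± 0.05 (adjusted p = 0.16) and -0.39 ± 0.09 (adjusted p = 0.301). Mblac1 differed by -0.25 ± 0.06 and Zfp180 by -0.28 ± 0.07 (both adjusted p = 0.284). In the animals at 48.5 mg/kg against vehicle these 5 genes differed by between -0.14 and 0.21, and 0 were called there.

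The probe sets near the top were then read in arrays that had no part in ranking them, the 6 at 48.5 mg/kg and the 6 of vehicle. On those 12 arrays limma called 556 probe sets (1.79%), 420 higher (1.35%) and 136 lower (0.438%). The main comparison had 50 probe sets higher at an unadjusted p below 0.001 (0.161%). Of these, 32 (64.0%) were called higher at 48.5 mg/kg and 43 (86.0%) were positive there, against 1.35% and 46.4% of all probe sets. It had 29 lower (0.0934%; 79 or 0.254% in both directions), of which 0 were called lower at 48.5 mg/kg and 15 (51.7%) were negative, against 0.438% and 53.6%. Without replicate 6 there were 57 higher, with 28 called and 49 positive, and 28 lower, with 0 called and 16 negative. The comparisons share no array, although all stand in 1 normalised table. Leaving out single arrays of the 48.5 mg/kg comparison gave 271 to 639 calls, with 351, 354, 338 and 356 without vehicle replicates 1, 2, 3 and 5, and 327 and 271 without replicates 5 and 6 at 48.5 mg/kg.

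The 8 genes counted above, with Alas1, Nqo1 and Gadd45b, were among those called at 48.5 mg/kg, where their differences were wider. The baselines differ, vehicle here and the pooled lower doses at 4.85 mg/kg. Vehicle averaged below those doses for Aldh1a1 (11.80 against 12.04) and Abcc3 (5.27 against 5.64), and above them for Cyp3a9 (8.74 against 8.51). CYP2B rose by 3.45 ± 0.14 on the log2 scale over vehicle (adjusted p = 1.04e-09), Abcc3 by 3.27 ± 0.13 (adjusted p = 7.01e-10) and Ces2c by 2.58 ± 0.09 (adjusted p = 1.68e-10). Cyp3a9 rose by 1.70, Alas1 by 1.45, Nqo1 by 1.40, Aldh1a1 by 1.32, Ugt2b1 by 1.25, Cyp3a23-3a1 and Gadd45b by 1.14 each, and Cyp2c6v1 by 0.42. The order of size differed from that at 4.85 mg/kg against the lower doses, where Cyp3a9 followed CYP2B and Abcc3 came next. Compression of the CYP2B signal, which lay close to the highest on the arrays at 48.5 mg/kg, was not tested. Cyp1a1 rose by 2.61 ± 0.24 at 48.5 mg/kg (adjusted p = 1.99e-05), beside its overlapping 0.28 at 4.85 mg/kg. From 48.5 to 485 mg/kg limma called 880 probe sets (2.83%), 453 higher (1.46%) and 427 lower (1.38%). Cyp1a1 rose by a further 3.42 ± 0.35, Ces2c by 1.63, Nqo1 by 1.32 and Abcc3 by 1.28, whereas Cyp3a9 differed by -0.46 ± 0.22 (adjusted p = 0.337) and Cyp2c6v1 by 0.07 ± 0.05 (adjusted p = 0.572).

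**Figure D5:**
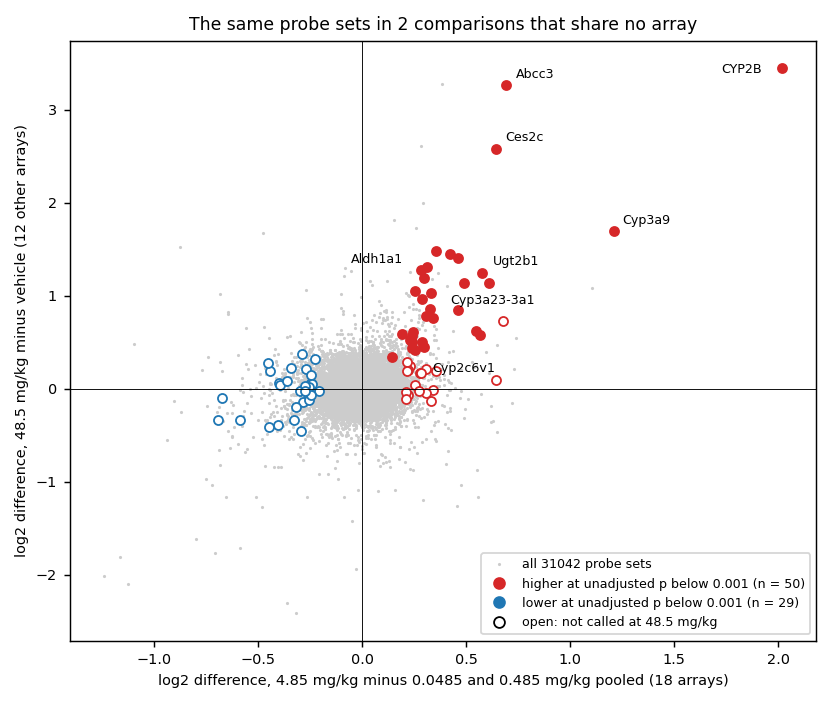
Log2 difference at 4.85 mg/kg against the pooled lower doses (x axis, 18 arrays) and at 48.5 mg/kg against vehicle (y axis, 12 other arrays) for all probe sets (grey). Red and blue mark the 50 higher and 29 lower probe sets at an unadjusted p below 0.001, filled where the 48.5 mg/kg comparison called them in the same direction: 32 red points are filled and 0 blue ones.

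Read the other way, the probe sets called at 48.5 mg/kg over vehicle had smaller differences at 4.85 mg/kg over the lower doses. The medians were 0.06 at 4.85 mg/kg and 0.39 at 48.5 mg/kg for the higher ones. Of the 420 probe sets higher there, 303 (72.1%) were positive at 4.85 mg/kg and 102 (24.3%) had an unadjusted p below 0.05 in that direction, against 3.35% of all probe sets. Among the 35 that were at least 2-fold higher, these were 29 (82.9%) and 20 (57.1%). Of the 136 lower, 75 (55.1%) were negative and 11 (8.09%) had an unadjusted p below 0.05, against 3.79%. Without replicate 6 the last count was 6 (4.41%).

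Separation of all 6 arrays from all 12 occurred for 11 probe sets (0.0354%), 8 of them higher (0.0258%) and 3 lower (0.00966%). The 3 lower were Otud6b, Eif4a1, a translation initiation helicase, at -0.18 ± 0.05, and Kdelr2, the receptor that returns ER proteins from the Golgi, at -0.12 ± 0.04. The 8 higher were CYP2B, Cyp2c6v1, Ugt2b1, Cyb5a, Meox2, Mmgt1, Zfyve1 and Parp1. Meox2, a homeobox transcription factor, differed by 0.68 ± 0.14 (adjusted p = 0.203) and by 0.73 at 48.5 mg/kg (adjusted p = 0.0954). Mmgt1, a membrane protein of the ER, differed by 0.29 ± 0.06 and Parp1, the DNA break sensor, by 0.20 ± 0.05. At 48.5 mg/kg, 6 of the 8 were called higher, the exceptions being Meox2 and Zfyve1, and 0 of the 3 lower ones were called. Apart from the genes already introduced, these were named after their values were seen, as were the following 4 from the probe sets at an unadjusted p below 0.001. App, the amyloid precursor protein, was higher in 2 probe sets by 0.36 and 0.28, both called at 48.5 mg/kg (1.48 and 1.28). Eif1a, a translation initiation factor, differed by -0.40 and -0.44 in the 2 of its probe sets at that level. Slc38a2, a neutral amino acid transporter, differed by -0.59 and Slc40a1, the iron exporter ferroportin, by -0.29. For Eif1a and Slc40a1 these were not the gene's brightest probe set, whose value is not given here.

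How many genes joined CYP2B past the threshold depended on single arrays. Leaving out each of the 18 arrays in turn gave 1 to 4 calls, and CYP2B was called each time, with log2 differences of 1.97 to 2.12. Without replicate 5 at 4.85 mg/kg there were 4, with Cyp3a9 (1.40, adjusted p = 0.0352), Cyp2c6v1 (0.27, adjusted p = 0.0414) and Smim3 (-0.38, adjusted p = 0.0414). Without replicate 3 at 4.85 mg/kg there were 3, with Gadd45b (0.72) and Abcc3 (0.81; both adjusted p = 0.0424). Without replicate 4 at 0.485 mg/kg there were 3, with Cyp2c6v1 (0.26) and Cyp3a23-3a1 (0.53; both adjusted p = 0.0329). Without replicate 2 at 0.0485 mg/kg there were 2, the other being a probe set without a gene name here (0.62, adjusted p = 0.00172). A model over all 36 arrays, which takes its spread from every dose group, called 9: CYP2B, Cyp2c6v1 (adjusted p = 0.00119), Ugt2b1 (adjusted p = 0.00672), Cyp3a23-3a1, Ces2c, Abcc3 (each adjusted p = 0.0191), Cyp3a9 (adjusted p = 0.0294), the unnamed probe set (adjusted p = 0.0391) and Zwint (adjusted p = 0.042). Smim3, Zwint and the unnamed probe set are named because these fits called them.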

How the data were processed

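Liver RNA was labelled with an Affymetrix 3′ kit and hybridised to Affymetrix rat expression arrays, per the labels' protocols. The authors deposited 1 table of log2 expression values for 36 arrays, made with RMA in the affy package per the submitters' processing notes; versions and settings are not given in the sources used here. RMA corrects background, equalises the arrays' distributions and summarises each probe set on the log2 scale, so levels of different probe sets are compared only roughly. This covers genes set beside the array medians or highest values, and summed markers. Precision depends on how many arrays there are and on the spread between them. No detection calls were used.

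Of 31099 probe sets, 57 controls were left out and 31042 tested; 20826 carried 1 gene in the platform annotation, 436 several and 9780 none. A gene was represented by its single-gene probe set with the highest mean over the 36 arrays, except for the joint CYP2B probe set. The main fit was limma 3.58.1 in R 4.3.3 (lmFit, eBayes) on 18 arrays with 2 groups and 16 residual degrees of freedom, with Benjamini-Hochberg adjustment over all probe sets and a threshold of 0.05. Other comparisons were fitted on their own arrays. RNA quality controls used exact permutation over samples. The fit was tested on simulated data: of 50 probe sets each, shifted by 0.25, 0.5, 1 and 2 log2 units, 34%, 90%, 100% and 100% were called, with 9 false calls. That check planted 200 shifts in noise drawn separately for each value, with no array set apart. The real fit called 1 probe set, so these rates check the code and are not the power of the real comparison.

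Named genes were the called ones, a panel of induction and endocrine genes, and the 2 smallest p of each list. They also included the 5 uncalled genes with the smallest p in each direction and the extremes of a range. Ephx1, Cyb5a, Cyb5r3, Alb and Ttr were given outside that rule and were not run through the alternatives. The members and lists were chosen with earlier results of these data known. Of 18 same-numbered pairs, 5 correlated above 0.1 (-0.14 to 0.22), so the numbers as a whole were not taken to pair samples; the 3 pairs of number 6 (0.099 to 0.22) and of number 5 (0.050 to 0.13) were all positive. Upstream sequences came from RefSeq, where 51 of 74 genes looked up had 1 window. Alternatives covered the arrays in the fit, normalization, filtering, variance moderation, array weights, the reference dose and each array left out.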

Additional observations from a re-analysis of the deposited data

Results flagged for a closer look

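In some groups of 6 arrays, a single array stood far from the others by Dixon's criterion. This happened in 15 of 222 groups examined, and chance marks about 1 in 20. At 4.85 mg/kg, replicate 6 was the lowest on the first principal component (-40.4, the next array at 5.09) and for Car1 (4.23) and the highest for Gstk1 (12.06). Replicate 1 was the lowest for Cyp7a1 (10.54) and the highest for Hsd17b7 (9.79), and replicate 5 was the lowest for Cyp3a9 (8.75, the next array at 9.62). At 0.485 mg/kg, replicate 4 was the highest for Ces2c (7.97), replicate 6 the lowest for Cyp2c11 (13.37), and replicate 3 the lowest for Ifit3 (3.95) and Gadd45b (4.67). At 0.0485 mg/kg, replicate 1 was the highest for Onecut1 (10.86) and the lowest for Hpd (13.16), replicate 3 the highest for Alas1 (10.86), replicate 4 the highest for Jchain (7.41) and replicate 5 the lowest for Dio1 (6.98).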

How the results depend on the processing

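CYP2B was called under all 34 alternatives, with log2 differences of 1.77 to 2.27 and adjusted p of 3.53e-11 to 0.0171. Of 73 named genes, 60 kept direction and side of the threshold throughout, and 7 passed it under at least 1 alternative. The count of 1 called probe set became 10 (9 higher, 1 lower) in a model over the 30 dosed arrays, 9 over all 36 arrays, 3 with an unmoderated test, 2 each with a brightness filter (15651 probe sets kept), trended and robust moderation, array weights, probe sets averaged per gene or an adjusted p below 0.10, and 3 without replicates 5 and 6 at 4.85 mg/kg, an alternative chosen after seeing the data. It was 1 in the 3-group model, with quantile normalization, median centring, either reference dose alone or a 1.5-fold minimum. Leaving out single arrays gave 1 to 4. With the replicate number as a block, which was not taken as pairing (6 of 18 arrays correlated best with their own number), the count was 1 (CYP2B adjusted p = 6.65e-05), 1 against 0.485 mg/kg, 1 against 0.0485 mg/kg, 0 between the lower doses, 486 at 48.5 mg/kg against vehicle and 648 at 485 against 48.5 mg/kg. Against 0.485 mg/kg alone the count was 4 over all 36 arrays and 1 to 2 with single arrays left out. Against 0.0485 mg/kg it was 3 with the unmoderated test, 2 over all 36 arrays and 1 to 2 with single arrays left out. At 48.5 mg/kg against vehicle it was 872 with the brightness filter and 271 to 639 with single arrays left out, and at 485 against 48.5 mg/kg (880 calls, 2.83%) 567 to 944. RNA quality differences ran from -0.084 to -0.045 for Actb, -0.036 to -0.010 for Gapdh and -0.063 to 0.011 for hexokinase with single arrays left out; the hexokinase sign turned without replicate 1 at 0.0485 mg/kg (0.0049) or replicate 6 at 4.85 mg/kg (0.011). Signs of uncalled genes also turned. With single arrays left out, Cyp7a1 ran from -0.19 to 0.13, positive without replicate 1 at 4.85 mg/kg, and Dio1 from -0.034 to 0.045. Dio1 was -0.011 with array weights, -0.072 against 0.485 mg/kg alone, -0.028 without replicates 5 and 6, and below 0 without replicate 4 or 5 at 0.0485 mg/kg or replicate 3, 4 or 6 at 4.85 mg/kg. Probe sets averaged per gene gave 0.0028 for Fgb and -0.020 for Blk. Without replicates 5 and 6, C1qa was 0.096 and Clec4f 0.18. The cause of these changes was not tested.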
